A study of Mus musculus with 1 sample.

Results

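Sustentacular cells are the glia of the adrenal medulla. They wrap the hormone-making chromaffin cells, and like Schwann cells they descend from the neural crest through Schwann cell precursors. The 7 genes described here are widely used as glial genes: *Lgi4*, *Fabp7*, *Erbb3*, *S100b*, *Gfap*, *Pmp22* and *Ngfr*. They were found by symbol among the 32285 genes of 1 single-cell library, and all 7 were listed.

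The library was made from the adrenal medulla of wild-type mice at postnatal day 15. Tissue from 5 animals, male and female, was pooled (10 adrenals, with most of the cortex cut away by hand), and 10000 viable cells went into the library. There was no treatment and no second genotype, and since mice were pooled, no value has a replicate. The comparisons are between cell classes within the library, no test between samples was possible, and all intervals given are 95% intervals that cover counting error only.

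Of 11214 barcodes, 10139 passed quality control, with a median of 3567 unique molecular identifiers (UMIs, each standing for 1 captured RNA molecule) per cell. Cells were clustered with the 7 genes left out of the variable features, and clusters were named from other markers, so that none of the 7 helped to define the classes. The classes compared were 178 sustentacular-like cells, 420 transitioning-like cells, which carried sustentacular and chromaffin markers together, and 2049 chromaffin-like cells. The last comprised 1663 adrenaline cells, which make *Pnmt*, the enzyme that turns noradrenaline into adrenaline, and 386 noradrenaline cells. Another 137 chromaffin-like cells were cycling. The remaining classes were cortex-like (3716 cells), endothelial-like (2151), immune-like (626) and fibroblast-like (88). Clusters with markers of more than 1 cell type, with 731 barcodes, and an unnamed cluster of 43 were not used.

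The sustentacular label rests on its naming markers, whose levels are therefore a description. Levels are given as CPM, the UMIs of a gene among 1000000 UMIs of all genes of the class. *Scn7a*, a sodium channel of non-myelinating glia, was at 1339 CPM in sustentacular-like cells and 5.56 in chromaffin-like cells. *Sox10*, the transcription factor that specifies neural crest glia, was at 381 CPM against no UMI in chromaffin-like cells. All 7 chromaffin markers also had UMIs in sustentacular-like cells, from 4.38 (*Slc18a1*) to 2214 CPM (*Chgb*), against 1.57 to 182 in endothelial-like cells. Their part in the values below was not tested. Sustentacular-like cells were shallow, with a median of 1146 UMIs against 5124.5 in transitioning-like and 3008 in chromaffin-like cells. Shares of cells are therefore given both for all UMIs and with every cell thinned to 1000 UMIs, which left out 56 sustentacular-like, 2 transitioning-like and 34 chromaffin-like cells.

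The 7 genes cover several roles in glia. LGI4 is a ligand that Schwann cells secrete and that is needed for peripheral myelination. ERBB3 is the receptor through which Schwann cell precursors receive neuregulin, and NGFR is the low-affinity receptor for neurotrophins. FABP7 carries fatty acids in glial progenitors, and S100B is a calcium-binding protein long used to stain sustentacular cells. GFAP is an intermediate filament of astrocytes and of non-myelinating Schwann cells, and PMP22 is a membrane protein of compact myelin that many other cells also make.

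On the GENCODE M21 annotation of GRCm38 (mm10), *Lgi4* (ENSMUSG00000036560) lies at chr7:31059342-31070935 on the plus strand and overlaps *Fxyd3* on the other strand. *Fabp7* (ENSMUSG00000019874) lies at chr10:57784881-57788450 on the plus strand. *S100b* (ENSMUSG00000033208) lies at chr10:76253853-76261159 on the plus strand and overlaps *Dip2a* on the other strand. *Erbb3* (ENSMUSG00000018166) lies at chr10:128567523-128589652 on the minus strand. *Pmp22* (ENSMUSG00000018217) lies at chr11:63128982-63159547 on the plus strand, *Ngfr* (ENSMUSG00000000120) at chr11:95568818-95587735 on the minus strand, and *Gfap* (ENSMUSG00000020932) at chr11:102887336-102900912 on the minus strand. The sources used here do not say whether reads were counted by strand. In sustentacular-like cells *Dip2a* had 1 UMI and *Fxyd3* had 19, against 150 for *S100b* and 125 for *Lgi4*.

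The sequences just upstream of *Fabp7* and *S100b* are shown because these genes had the most alike pattern of any pair of the 7 over the cell clusters (Pearson's r of 0.99, described further on). They are the plus strand of GRCm38.p6 as RefSeq gives it, at chr10:57784673-57784880 and chr10:76253586-76253835. Capitals mark TTGGC, the half-site known for nuclear factor I proteins, or its reverse complement GCCAA.

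Fabp7: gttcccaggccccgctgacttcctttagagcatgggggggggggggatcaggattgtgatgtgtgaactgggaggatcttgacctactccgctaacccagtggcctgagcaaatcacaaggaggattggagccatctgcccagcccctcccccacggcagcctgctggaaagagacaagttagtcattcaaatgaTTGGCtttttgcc
S100b: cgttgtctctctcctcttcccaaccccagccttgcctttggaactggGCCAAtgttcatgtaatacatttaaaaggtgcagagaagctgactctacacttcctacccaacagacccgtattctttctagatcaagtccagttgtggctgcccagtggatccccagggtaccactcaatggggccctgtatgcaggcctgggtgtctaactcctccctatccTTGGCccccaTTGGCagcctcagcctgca

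The *Fabp7* stretch holds 1 such half-site and the *S100b* stretch 3. RefSeq promoter windows of 300 bases (250 before and 50 after the start) were available for 5 of the 7 genes, 8 windows in all, and only those of *Fabp7* and *S100b* held TTGGC on either strand. The same letters occur in 46.7% of all 32851 promoter windows, so their presence is common. The cores ACAAAG and ACAATG, letters that SOX proteins can bind, occur in 18.7% and 12.6% of all windows and TATAAA in 13.6%, and none of these was found in the 8 windows. A match is a description of the letters and says nothing of binding.

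The first question is where in the adrenal the 7 genes were expressed. Each of the 7 had its highest level in sustentacular-like cells. Together they were at 3653 CPM there (3410 to 3909.9), 729.7 in transitioning-like cells (697 to 763) and 78.3 in chromaffin-like cells (72.5 to 84.4). In sustentacular-like cells the 835 UMIs of the 7 genes were split unevenly: *Pmp22* gave 30.1%, *Fabp7* 24.7%, *S100b* 18.0%, *Lgi4* 15.0%, *Erbb3* 5.99%, *Gfap* 3.59% and *Ngfr* 2.75%. Because the kit counts molecules at their 3′ ends, CPM was not scaled by gene length. How evenly the genes were captured was not tested, so comparisons between genes are of captured molecules.

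*Lgi4*, the secreted ligand, was at 547 CPM in sustentacular-like cells (455 to 652, 125 UMIs) and 74.8 in transitioning-like cells (64.6 to 86.2). Fibroblast-like cells followed at 40.9 (20.4 to 73.3, 11 UMIs in 6 of 88 cells), which overlapped the transitioning-like interval. It was lower in cycling chromaffin-like (10.8, 5.16 to 19.8) and immune-like cells (9.19, 4.75 to 16.04), whose intervals overlapped each other. In noradrenaline chromaffin-like (2.31), cortex-like (0.448), adrenaline chromaffin-like (0.409) and endothelial-like cells (0.175) it had from 1 to 11 UMIs, and neighbours in this order did not differ beyond their intervals. The level in sustentacular-like cells was 787 times that in chromaffin-like cells, with only 6 UMIs in the latter (interval of the ratio 352 to 2185).

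*Erbb3*, the neuregulin receptor, was at 219 CPM in sustentacular-like cells (162 to 288) and 38.0 in transitioning-like cells (30.8 to 46.3). Fibroblast-like cells were at 22.3 (8.20 to 48.6, 6 UMIs in 4 of 88 cells). Cycling chromaffin-like cells were at 16.1 (9.03 to 26.6), and these neighbours overlapped. Unlike *Lgi4*, it had a low level in the other chromaffin-like cells, 6.54 in adrenaline (4.82 to 8.67) and 5.40 in noradrenaline cells (2.17 to 11.1), without a difference between them beyond their intervals. The endothelial-like cells had no UMI of *Erbb3*, which allows up to 0.524 CPM (3 counts in their total). That limit is below the interval of the adrenaline cells. The part of free RNA in the adrenaline level was not tested. Immune-like (1.53) and cortex-like cells (0.488) closed the order.

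*Ngfr*, the neurotrophin receptor, was the least abundant of the 7 in sustentacular-like cells, at 101 CPM (63.8 to 151, 23 UMIs). The order below it was unlike that of the other 6. Adrenaline chromaffin-like cells came next at 27.0 (23.4 to 31.0, 198 UMIs), then cycling chromaffin-like cells at 22.6 (14.0 to 34.5) and transitioning-like cells at 20.55 (15.4 to 26.9), and these 3 overlapped. Noradrenaline chromaffin-like cells were at 4.63 (1.70 to 10.1), so that the adrenaline level was 5.83 times the noradrenaline level (2.63 to 16.1). It was nearly absent outside the medulla, with 4 UMIs in the cortex-like cells, 2 in the fibroblast-like cells (7.44 CPM, 0.901 to 26.9) and none in the endothelial-like and immune-like cells. Those zeros allow up to 0.524 and 2.30 CPM.

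*Fabp7*, the fatty acid carrier, reached 901 CPM in sustentacular-like cells (782 to 1033) and 199 in transitioning-like cells (182 to 217). The most UMIs of *Fabp7* in any 1 sustentacular-like cell was 11, the highest such count among the 7 genes in that class. Fibroblast-like cells were at 55.8 (31.2 to 92.1, 15 UMIs in 11 of 88 cells). Cycling chromaffin-like cells were at 39.8 (28.0 to 54.9), and these intervals overlapped. Noradrenaline chromaffin-like cells were at 11.6 (6.48 to 19.1) and adrenaline cells at 0.818 (0.300 to 1.78), a ratio of 14.1 (5.19 to 44.5) that rests on 15 and 6 UMIs. Immune-like cells were at 2.30 (0.474 to 6.71), overlapping both of these, and endothelial-like (0.524) and cortex-like cells (0.285) were lowest.

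*S100b*, the calcium-binding protein, was at 656 CPM in sustentacular-like cells (555 to 770.1) and 100.4 in transitioning-like cells (88.6 to 113). The fibroblast-like level was 48.4 (25.8 to 82.7) and the cycling chromaffin-like level 12.9 (6.67 to 22.6). Every step down to this point exceeded the intervals, although the fibroblast-like level rested on 13 UMIs in 6 of 88 cells, with up to 5 in 1 cell. Noradrenaline chromaffin-like (6.94), immune-like (2.30), adrenaline chromaffin-like (1.23), endothelial-like (0.699) and cortex-like cells (0.651) followed with overlapping neighbours.

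*Gfap*, the glial filament, was at 131 CPM in sustentacular-like cells (88.6 to 187) and 31.8 in transitioning-like cells (25.3 to 39.5). Cycling chromaffin-like cells were at 9.69 (4.43 to 18.4), below the transitioning-like interval. Its other levels rested on few molecules, with 1 UMI in fibroblast-like (3.72 CPM), 2 in immune-like (1.53), 7 in cortex-like (0.285) and 2 in adrenaline chromaffin-like cells (0.273). No UMI was found in noradrenaline chromaffin-like or endothelial-like cells, which allows up to 2.31 and 0.524 CPM.

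*Pmp22*, the myelin membrane protein, was found in every class. It was highest in sustentacular-like cells, at 1098 CPM (967 to 1243), and at 265 in transitioning-like cells (245 to 285). It was also at 197 in fibroblast-like (148 to 258), 164 in cortex-like (159 to 170), 154 in noradrenaline chromaffin-like (134 to 177), 126 in cycling chromaffin-like (104 to 151) and 109 in endothelial-like cells (101 to 118), each interval overlapping that of its neighbour. Immune-like cells were lower, at 47.5 (36.4 to 60.8), and adrenaline chromaffin-like cells lowest, at 23.2 (19.8 to 26.9). The noradrenaline level was 6.66 times the adrenaline level (5.40 to 8.22), on 200 and 170 UMIs.

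**Figure D1:**
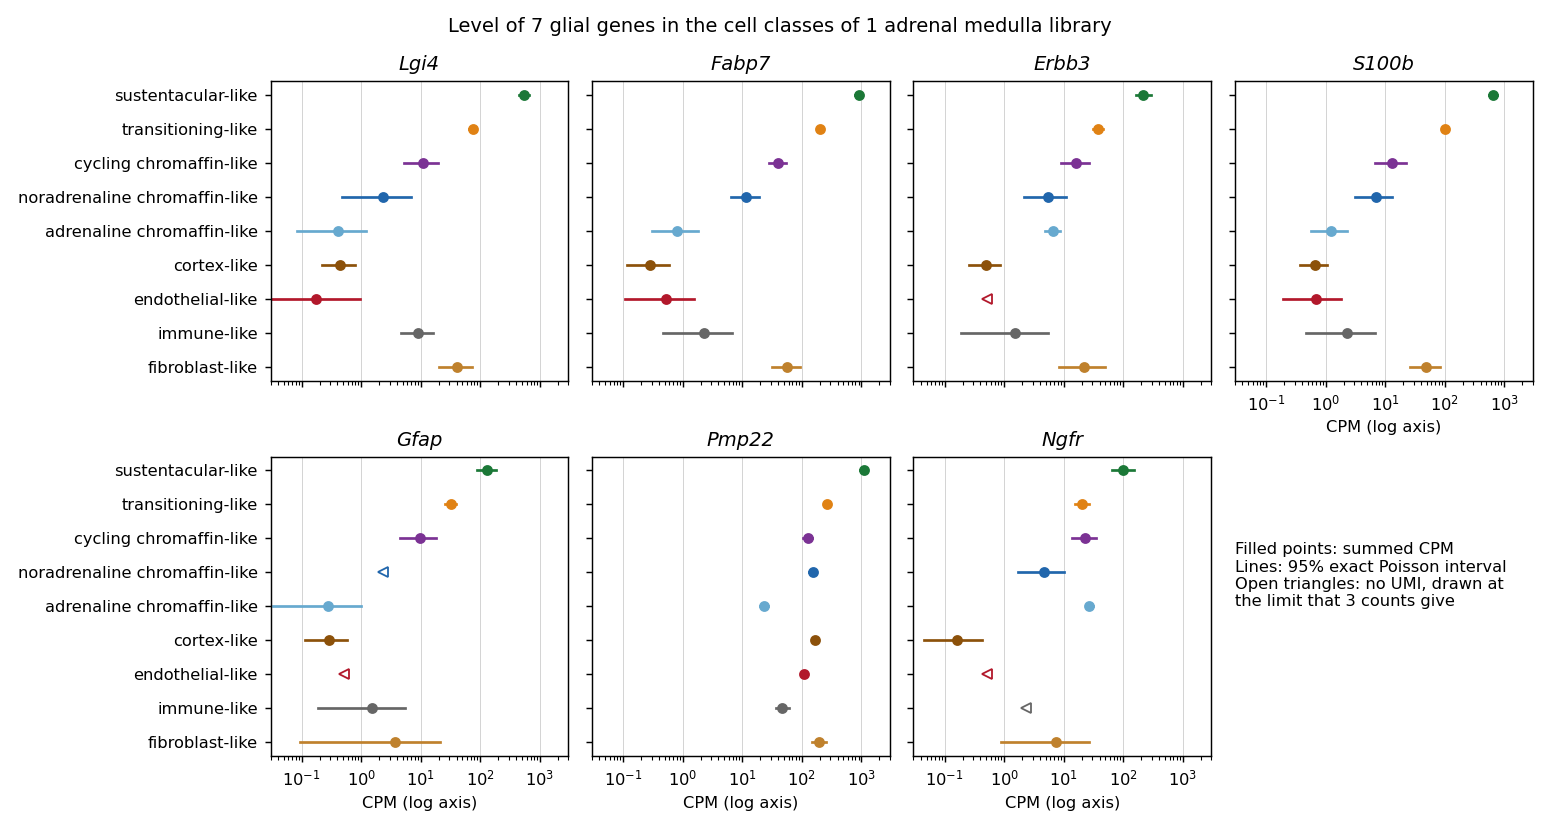
Level of each of the 7 glial genes (CPM, log axis) in 9 cell classes of 1 library, with 95% exact Poisson intervals; open triangles mark classes with no UMI, at the limit that 3 counts allow. The sustentacular-like point is the highest in all 7 panels, *Pmp22* stays above 20 CPM in every class, and *Ngfr* is at 27.0 in adrenaline and 4.63 in noradrenaline chromaffin-like cells.

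Set against chromaffin-like cells, 6 of the 7 genes were at least 4-fold higher in sustentacular-like cells on the scale of CPM plus 10. Of the 11824 genes with at least 20 UMIs in the pair of classes, 4.19% were. The 7 were chosen with earlier results of these data known. The study had already reported *Lgi4*, *Fabp7*, *S100b* and *Gfap* among the genes of its sustentacular cluster. This count and those of the comparisons below therefore describe the chosen set and do not test it. The median fold of the 7 was 21.0 and that of all genes 0.892. *Fabp7* had the largest fold of the 7 on this scale, at 73.3, followed by *S100b* at 55.1, *Lgi4* at 52.1, *Pmp22* at 21.0, *Erbb3* at 14.0 and *Gfap* at 13.8. *Ngfr*, at 3.29-fold, was the gene that fell short. Without the added 10, *Ngfr* was 4.26 times higher (2.64 to 6.57), and *Pmp22* 25.6 times (21.7 to 30.2).

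Against the cortex-like, endothelial-like, immune-like and fibroblast-like cells pooled, all 7 passed 4-fold, where 3.32% of 13820 genes did. Here *Pmp22* had the smallest fold, 6.92, and *Ngfr* was at 10.9. The order of these genes thus depended on which cells they were set against, as *Ngfr* was shared with adrenaline chromaffin-like cells and *Pmp22* with most classes.

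The comparison of transitioning-like with chromaffin-like cells used the same chromaffin-like cells as that of sustentacular-like cells. Here 5 of the 7 passed 4-fold, where 0.864% of 12269 genes did. *Fabp7* was at 16.8-fold, *S100b* at 9.14, *Lgi4* at 7.93, *Pmp22* at 5.20 and *Gfap* at 4.08. *Erbb3* was at 2.93-fold on this scale and *Ngfr* at 0.908. The ratio of *Ngfr* without the added 10 was 0.870 (0.630 to 1.18), an interval that holds 1.

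Within the chromaffin-like cells, only 4 of the 7 had enough UMIs for the comparison of noradrenaline with adrenaline cells. *Pmp22*, at 4.95-fold, was the 1 gene of these that passed, where 0.45% of 11568 genes did. *Fabp7* was at 1.99-fold, *Erbb3* at 0.931 and *Ngfr* at 0.396. The 3 adrenaline clusters, of 845, 711 and 107 cells, had *Ngfr* at 22.1, 29.3 and 23.6 CPM and *Pmp22* at 23.5, 23.6 and 15.7, with overlapping intervals for each gene.

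How often a gene was detected depended on depth as well as level. With all UMIs, *Pmp22* had a UMI in 70.8% of sustentacular-like cells (63.5 to 77.3), *S100b* in 57.3% (49.7 to 64.7), *Lgi4* in 52.2% (44.6 to 59.8) and *Fabp7* in 50.6% (43.0 to 58.1). *Erbb3* was found in 23.0% (17.1 to 29.9), *Gfap* in 15.7% (10.7 to 21.9) and *Ngfr* in 11.8% (7.45 to 17.5). In the deeper transitioning-like cells, the shares for *Pmp22* (69.8%), *Fabp7* (48.8%), *Erbb3* (20%), *Gfap* (15%) and *Ngfr* (11.9%) lay within those intervals, while *S100b* (43.8%) and *Lgi4* (35.0%) were lower.

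At 1000 UMIs per cell the classes separated. *Fabp7* was then detected in 45.1% of 122 sustentacular-like cells (36.1 to 54.3) and 18.7% of 418 transitioning-like cells (15.0 to 22.7). *Pmp22* was detected in 63.9% (54.7 to 72.4) and 28.0% (23.7 to 32.6), and *Lgi4* in 38.5% (29.9 to 47.8) and 11.005% (8.17 to 14.4). The intervals of sustentacular-like and transitioning-like cells did not overlap for any of the 7 genes. In endothelial-like cells, which should lack these genes other than *Pmp22*, shares with all UMIs ran from none of 2151 cells for *Erbb3*, *Gfap* and *Ngfr*, allowing up to 0.139%, to 0.186% for *S100b*, at a median depth of 2007 UMIs. Shares in chromaffin-like cells were higher than those in endothelial-like cells for *Fabp7* (0.878%, 0.521 to 1.38, against 0.0465%), *Erbb3* (2.54%, 1.90 to 3.31) and *Ngfr* (8.98%, 7.78 to 10.3). The median depth of chromaffin-like cells was 3008 UMIs, and their *Pmp22* share was 14.0% (12.5 to 15.5). The part of free RNA in these shares was not tested.

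**Figure D2:**
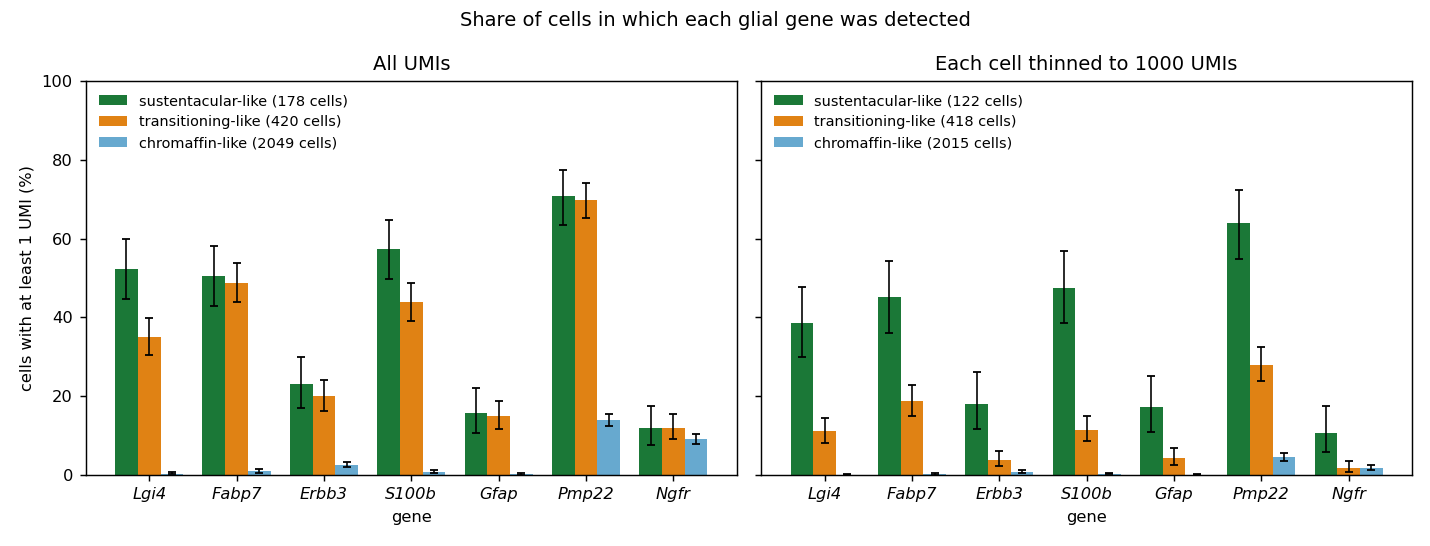
Share of cells with at least 1 UMI of each gene (%) in sustentacular-like, transitioning-like and chromaffin-like cells, with 95% Clopper-Pearson intervals, for all UMIs (left) and with each cell thinned to 1000 UMIs (right). *Fabp7* is at 50.6% and 48.8% in the sustentacular-like and transitioning-like bars on the left and at 45.1% and 18.7% on the right.

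The next question is whether single barcodes carried several of the genes. A sustentacular-like cell had a median of 3 of the 7, and the most was 6. Of the 178 cells, 4 had none, 20 had 1, 52 had 2, 51 had 3, 35 had 4, 12 had 5 and 4 had 6. At least 2 of the genes were found in 86.5% of the cells (80.6 to 91.2), and in 77.0% of 122 cells (68.6 to 84.2) after thinning. Transitioning-like cells had a median of 2, and 71.7% (67.1 to 75.9) had at least 2, or 20.6% (16.8 to 24.8) after thinning. Among the 2049 chromaffin-like cells, 1548 had none and 2.68% (2.03 to 3.48) had 2 or more.

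Leaving out *Pmp22*, which other classes also expressed, at least 3 of the other 6 genes were found together in 64 of 178 sustentacular-like cells (36.0%) and 115 of 420 transitioning-like cells (27.4%). These counts use all UMIs, and thinned shares were counted over all 7 genes only. At least 3 of the 7 were in 57.3% and 45.2% of these classes with all UMIs. After thinning the shares were 49.2% (40.0 to 58.4) and 4.55% (2.76 to 7.01). No chromaffin-like cell of 2049 and no endothelial-like cell of 2151 had 3 of the 6 genes other than *Pmp22*. The combination was seen in 6 of 137 cycling chromaffin-like cells, 4 of 88 fibroblast-like cells, 2 of 626 immune-like cells and 1 of 3716 cortex-like cells. In the fibroblast-like class, naming markers of sustentacular cells other than *Sox2* were present too, with *Scn7a* at 197 and *Sox10* at 48.4 CPM. *Sox2* had no UMI in these 88 cells.

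**Figure D3:**
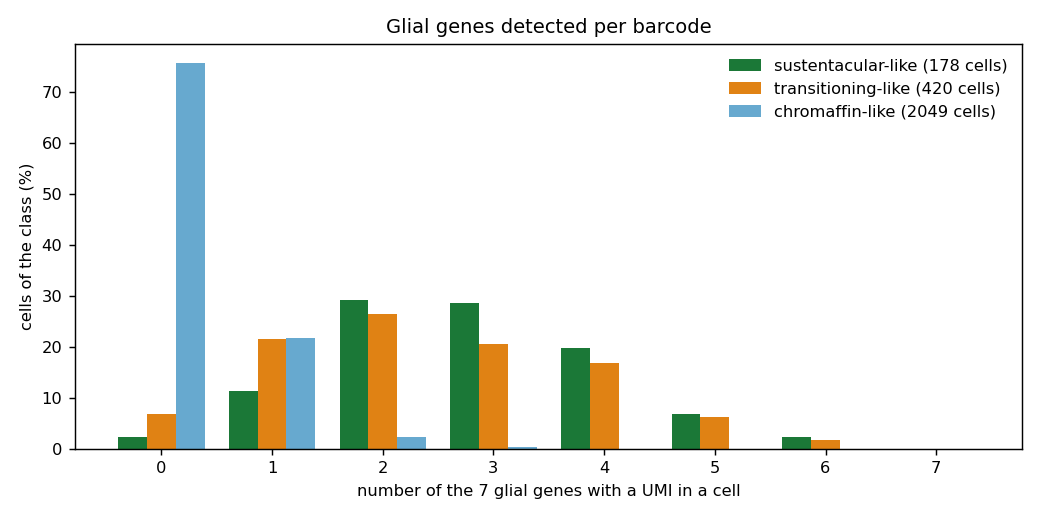
Percentage of cells (y axis) that carried from 0 to 7 of the glial genes (x axis) in the 178 sustentacular-like, 420 transitioning-like and 2049 chromaffin-like cells, with all UMIs counted. The sustentacular-like bars peak at 2 and 3 genes (52 and 51 cells), the transitioning-like bars at 2 (111 cells), and 1548 chromaffin-like cells stand at 0.

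Within the sustentacular-like cells no pair of the genes stood out. For each of the 21 pairs, the share of cells with 1 gene was compared between cells with and without the other. It was higher in the cells with the other gene for 14 of 21 pairs, or 10 of 21 after thinning, and the paired intervals overlapped in all 21. *Fabp7*, for example, was detected in 55.9% of 102 cells with *S100b* (45.7 to 65.7) and 43.4% of 76 cells without it (32.1 to 55.3). *Lgi4* was detected in 67.9% of 28 cells with *Gfap* (47.6 to 84.1) and 49.3% of 150 cells without it (41.1 to 57.6).

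In transitioning-like cells 19 of 21 pairs went together, 14 after thinning, and intervals were apart for 2 pairs. *Pmp22* was found in 78.0% of 205 cells with *Fabp7* (71.8 to 83.5) and 61.9% of 215 cells without it (55.0 to 68.4). *Gfap* was found in 22.8% of 184 cells with *S100b* (17.0 to 29.6) and 8.90% of 236 cells without it (5.59 to 13.3). Cells with *Fabp7* were also deeper, with a median of 5782 UMIs against 4541, and cells with *S100b* had 5400 against 4757.5. The part of depth in these pairs was not tested beyond thinning, after which the shares were 42.3% against 24.7% and 8.33% against 3.78%.

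The comparison of transitioning-like with sustentacular-like cells asks at what level the glial genes were expressed in cells that also carried chromaffin markers. In CPM the 7 genes together were at 0.1997 of the sustentacular-like level (0.184 to 0.217). Single genes ranged from 0.137 for *Lgi4* (0.109 to 0.173) and 0.153 for *S100b* (0.125 to 0.188) to 0.241 for *Pmp22* (0.208 to 0.280) and 0.242 for *Gfap* (0.158 to 0.381). *Erbb3* was at 0.174 (0.122 to 0.249), *Ngfr* at 0.204 (0.123 to 0.349) and *Fabp7* at 0.221 (0.188 to 0.261). The interval of *Lgi4* lay below those of *Fabp7* and *Pmp22*, and that of *S100b* below that of *Pmp22*. The intervals of *Erbb3*, *Gfap* and *Ngfr* overlapped those of all the others. These intervals cover counting error only, and the part of the spread between cells in these differences was not tested.

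The same ratio over 295 genes that were at least 10 times higher in sustentacular-like than in chromaffin-like cells had a median of 0.172, with 50% of the genes between 0.143 and 0.217. Of the 7 genes, 6 were among these 295. *Lgi4* lay at or above 20% of them, *S100b* at or above 32.9%, *Erbb3* 51.2%, *Ngfr* 69.2%, *Fabp7* 76.9%, *Pmp22* 85.4% and *Gfap* 85.8%. Their ratios spread over the range of these genes. The 295 were chosen by their level in sustentacular-like cells, which is also the denominator of the ratio. This placement is therefore a description. *Ngfr*, at 4.26 times the chromaffin-like level, was the member not among them.

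Counted per cell rather than in CPM, the picture differed. A sustentacular-like cell held on average 4.69 UMIs of the 7 genes (4.38 to 5.02) and a transitioning-like cell 4.48 (4.28 to 4.69), a ratio of 0.955 (0.880 to 1.04). Total UMIs per cell were 4.78 times higher in transitioning-like cells, at 6141 against 1284. *Fabp7* was at 1.16 and 1.22 UMIs per cell, *Pmp22* at 1.41 and 1.63, *Gfap* at 0.169 and 0.195 and *Ngfr* at 0.129 and 0.126, with ratios whose intervals hold 1. *Erbb3*, at 0.281 and 0.233, also had such an interval (0.585 to 1.19). *Lgi4*, at 0.702 and 0.460, and *S100b*, at 0.843 and 0.617, were lower per cell in transitioning-like cells, with ratios of 0.654 (0.520 to 0.826) and 0.732 (0.596 to 0.901). The median per-cell ratio of the 295 sustentacular genes was 0.824. The part of depth in these ratios was not tested. A barcode that holds more than 1 cell also carries both sets of genes, and Scrublet called 2 of the 420 transitioning-like cells as doublets. Without them the CPM ratio of the 7 genes was 0.199.

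**Figure D4:**
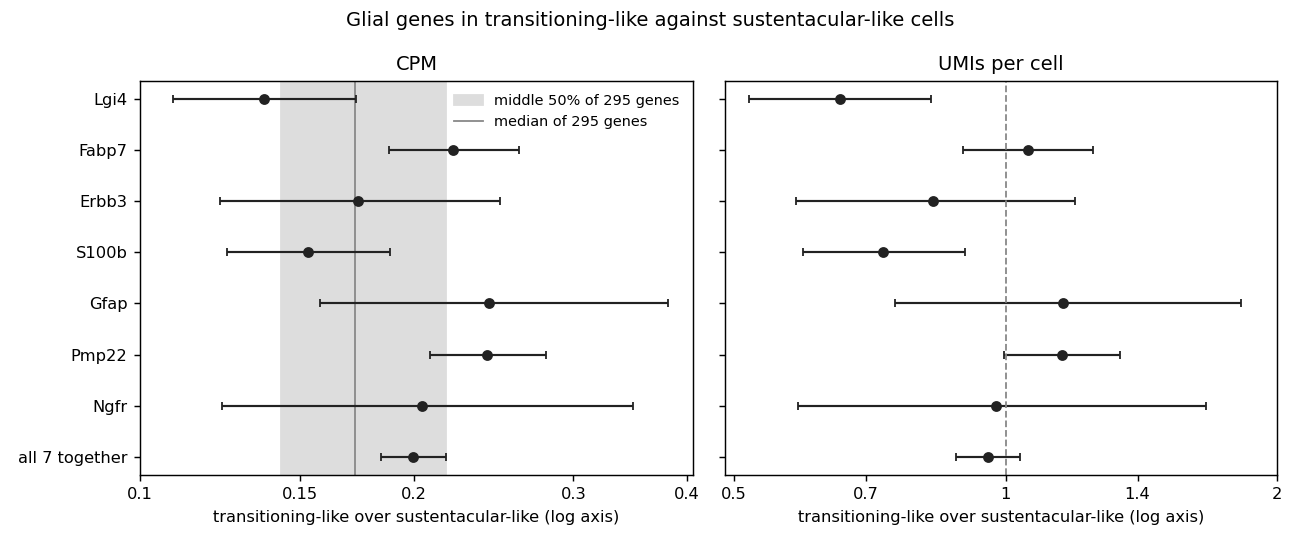
Ratio of transitioning-like over sustentacular-like cells for each gene and for all 7 together (log axes), in CPM (left) and in UMIs per cell (right), with 95% exact conditional intervals. The grey band and line on the left are the middle 50% (0.143 to 0.217) and the median (0.172) of 295 sustentacular genes, and the dashed line on the right marks a ratio of 1, which lies inside the intervals of all but *Lgi4* and *S100b*.

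Transitioning-like cells were divided by *Pnmt* into an adrenaline side (139 cells with *Pnmt* above 1000 CPM) and a noradrenaline side (281 cells). Only 24 cells lay between 500 and 2000 CPM. The 7 genes together were at 473.8 CPM on the adrenaline side (430.5 to 520.2) and 873 on the noradrenaline side (829 to 919), a ratio of 1.84 (1.66 to 2.06). Much of this came from *Fabp7*, at 104.7 against 252 (ratio 2.41, 1.93 to 3.04), and *Pmp22*, at 144 against 333 (2.32, 1.92 to 2.82). *S100b* (80.9 against 111, ratio 1.38, 1.05 to 1.82) and *Erbb3* (27.0 against 44.2, ratio 1.64, 1.03 to 2.69) were nearer, and the ratios of *Lgi4* (1.31, 0.953 to 1.81), *Gfap* (1.08, 0.673 to 1.77) and *Ngfr* (0.731, 0.411 to 1.32) had intervals that hold 1. Median depth was 5677 UMIs on the adrenaline side and 4760 on the noradrenaline side. *Pmp22* and *Fabp7* were also higher in noradrenaline than in adrenaline chromaffin-like cells, as given above. So was *S100b*, with a ratio of 5.66 (1.99 to 16.1) that rests on 9 UMIs in each class. In that comparison *Ngfr* was lower, and the intervals of *Lgi4*, *Erbb3* and *Gfap* hold 1.

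When the transitioning-like cells were ranked by the summed level of 7 chromaffin markers and divided into 4 groups of 105 cells, the glial level was lower in each successive group. The 7 genes were at 1007 CPM in the lowest group (917 to 1104), 766 in the next (699 to 838), 715 in the third (653 to 781) and 561 in the highest group (511 to 615). The intervals of the second and the third groups overlapped. *Pmp22* went from 419 (362 to 484) to 192 (163 to 224) and *Fabp7* from 248 (205 to 299) to 157 (131 to 187), with intervals of the lowest and highest groups apart. *Lgi4*, *Erbb3*, *S100b* and *Gfap* had lower values in the highest than in the lowest group, with overlapping intervals. *Ngfr* had 15.5 in the lowest and 20.9 in the highest group, also overlapping. Both measures share the cell's total UMIs as denominator, and depth moved with the ranking, from a median of 3336 UMIs per cell to 6610. The molecules themselves were nearly even, at 454, 474, 497 and 457 UMIs of the 7 genes in the 4 groups.

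**Figure D5:**
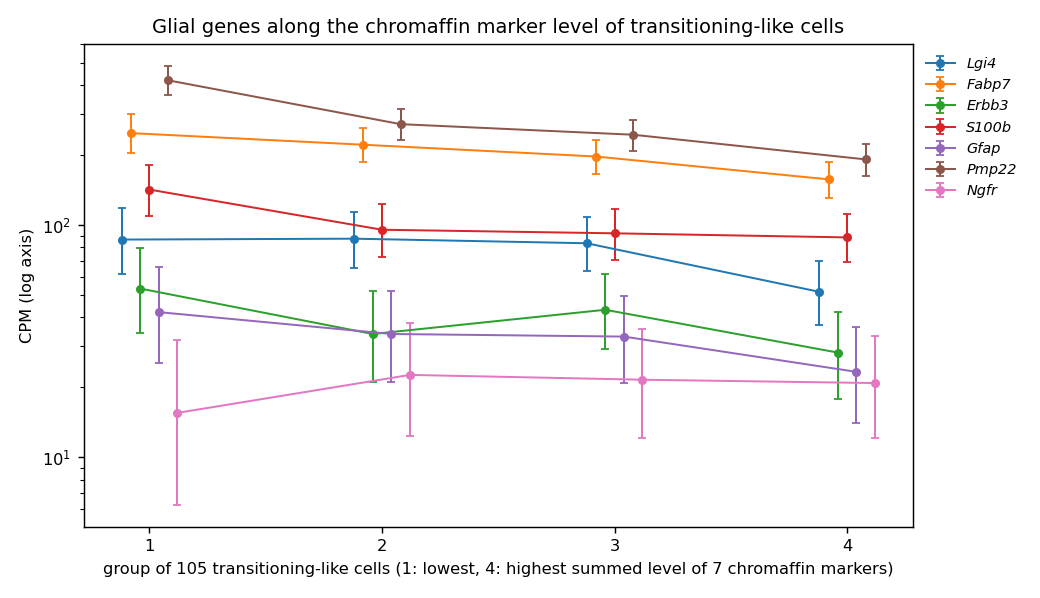
Level of each gene (CPM, log axis) with 95% exact Poisson intervals in 4 groups of 105 transitioning-like cells, ranked by the summed level of 7 chromaffin markers. *Pmp22* runs from 419 to 192 and *Fabp7* from 248 to 157, while the intervals of *Ngfr* overlap throughout.

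Barcode by barcode, the summed level of the 7 genes had a median of 3604 CPM in sustentacular-like cells, with 50% of cells between 2259.6 and 4801. In transitioning-like cells the median was 649.7 (341 to 1148) and in chromaffin-like cells 0, with 10% of cells above 331. Of the transitioning-like cells, 28 (6.67%) reached the lower quartile of sustentacular-like cells and 101 (24.0%) lay at or below 331. The chromaffin markers, which helped to name the classes, had the opposite order, with medians of 0 in sustentacular-like, 39982 in transitioning-like and 80362 in chromaffin-like cells. Transitioning-like cells lay between the other classes in both sets of genes. They were named for carrying sustentacular and chromaffin markers together, so this position is a description.

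Partners of the 3 signalling genes were looked at next. For ERBB3, which needs another ERBB receptor to signal, *Erbb2* had 1 UMI in sustentacular-like cells (4.38 CPM, 0.111 to 24.4), and *Erbb4* and *Egfr* had none, which allows up to 13.1. *Erbb4* was at 6.41 in adrenaline chromaffin-like cells and *Egfr* at 12.02 in transitioning-like cells, both below that limit. *Egfr* was at 13.9 in noradrenaline cells (18 UMIs), just above the limit. The exact interval of the sustentacular-like zero reaches 16.1, so no clear difference from the zeros was detectable at this depth. Of the neuregulin ligands, *Nrg1* was at 37.0 CPM in noradrenaline, 10.2 in adrenaline and 23.7 in transitioning-like cells, with no UMI in sustentacular-like cells. *Nrg3* was at 54.8, 49.3 and 40.7 in the same classes and at 4.38 in sustentacular-like cells. *Nrg2* and *Nrg4* were below 4 CPM in the adrenaline, noradrenaline and transitioning-like cells, and had no UMI in sustentacular-like cells. Of the 7 genes in this list, 5 had enough UMIs, none was 4-fold higher in sustentacular-like than in chromaffin-like cells, and 1 (*Nrg3*) was 4-fold lower, where 3.29% of genes were.

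For NGFR, *Ntrk2*, a neurotrophin receptor, was at 54.2 CPM in adrenaline chromaffin-like cells and at 1.54 in noradrenaline cells. *Ntrk3*, another, was at 21.6 in noradrenaline and 2.73 in adrenaline cells. In sustentacular-like cells *Ntrk2* had no UMI and *Ntrk3* had 1, while the sorting receptor *Sort1* was at 83.1 (50.1 to 129.8) against 12.4 in adrenaline and 22.4 in noradrenaline cells. The neurotrophins *Bdnf* (8 UMIs), *Ntf3* (4) and *Ntf5* (1) were barely detected in medullary cells, and *Ntf3* was at 22.4 CPM in endothelial-like cells. *Ntrk2* was 4-fold lower in sustentacular-like than in chromaffin-like cells, and *Ntrk3* (0.924-fold) and *Sort1* (3.90-fold) were neither.

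For LGI4, the receptors of the ADAM family were looked at. *Adam23* was at 394 CPM in sustentacular-like cells (317 to 484), 59.7 in transitioning-like, 3.13 in adrenaline and 1.54 in noradrenaline chromaffin-like cells, the 1 of 4 tested genes that was 4-fold higher. *Adam22*, the receptor best known for LGI4, was more even, at 30.6 (12.3 to 63.1), 21.7, 20.2 and 27.0 in the same order, and *Adam11* was at 17.5 in sustentacular-like cells. The relative *Lgi1* was at 118.8 in noradrenaline chromaffin-like, 94.995 in transitioning-like, 39.4 in sustentacular-like and 27.9 in adrenaline chromaffin-like cells, and at 0.957-fold in sustentacular-like over all chromaffin-like cells. *Lgi3* was at 11.6 in adrenaline cells with 1 UMI in sustentacular-like cells, and *Lgi2* had no UMI in medullary cells.

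Relatives of the other members followed them in part. In the PMP22 family all 3 genes were 4-fold higher in sustentacular-like than in chromaffin-like cells, with *Emp3* at 350.03, *Emp2* at 153 and *Emp1* at 109 CPM, although *Emp3* was at 582 in cortex-like and *Emp1* at 182 in endothelial-like cells. In the S100 family 2 of 7 passed, *S100a4* (337, 6.88-fold) and *S100a11* (411, 5.88-fold), while *S100a6* (1006) and *S100a10* (394) were at 2.72 and 2.15-fold. Among fatty acid binding proteins *Fabp4* passed (197), a gene at 5633 in endothelial-like cells, whose part in this value was not tested. *Fabp5* was at 228 in sustentacular-like and 123 in adrenaline cells, and *Fabp3* had no UMI in sustentacular-like cells. Among intermediate filaments, *Vim* (2170.2 CPM, 133-fold) and *Nes* (74.4, 7.98-fold) passed with *Gfap*, whereas the neuronal filaments *Prph* and *Nefl* were at 4.38 and *Nefm* had no UMI.

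Lists of glial states were then counted in the same way. Of 11 myelin genes 5 were tested and 4 passed, among them *Mbp* at 276 CPM (5.84-fold), *Cnp* at 254 (15.1-fold) and *Mal* at 188 (19.1-fold). *Egr2* was tested and did not pass, with 1 UMI in sustentacular-like cells (1.01-fold). *Mag*, *Pmp2*, *Prx*, *Ncmap* and *Cldn19* had no UMI in sustentacular-like cells. Of 10 genes of non-myelinating Schwann cells and satellite glia 9 were tested and 5 passed. The most abundant of this list were *Apoe* at 18394 CPM (328-fold), *Ncam1* at 967 (2.63-fold), *Matn2* at 923 (76.5-fold) and *Cdh2* at 276 (3.70-fold). The other 3 that passed were *Entpd2* (228, 22.7-fold), *L1cam* (166, 4.01-fold) and *Kcnj10* (123, 12.8-fold), named after their values were seen. *Apoe* was higher still in immune-like cells, at 29607.

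Of 4 genes of repair Schwann cells and 5 of astrocytes, only 1 each (*Jun* and *Aldoc*) had enough UMIs to be tested, and neither passed. *Jun* was at 1912 CPM in sustentacular-like and 1908 in endothelial-like cells (2.64-fold over chromaffin-like cells), and *Gdnf* had 2 UMIs, with none of *Shh* or *Olig1*. *Aldoc* was at 136 (3.95-fold), *Gja1* had 2 UMIs, *Aldh1l1* 1, and *Aqp4* and *Slc1a2* none. Of 4 glial transcription factors the 2 tested passed, *Zeb2* at 1186 (44.2-fold) and *Foxd3* at 175 (17.3-fold), and *Sox2* was at 65.6 and *Tfap2a* at 8.75. *Foxd3* and *Sox2* also helped to name the cluster, so their levels are a description. Over all lists, *Foxd3* included, 20 of 49 tested genes were 4-fold higher and 2 lower, with a median of 2.72-fold, where 4.19% of all genes were higher and 3.29% lower and the median was 0.892.

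Finally, the pattern of each gene over the 19 clusters of all cells was compared with those of other genes. Only the 13879 genes with at least 50 UMIs in these clusters were used. The measure was Pearson's r of log2 of CPM plus 10. The clusters come from 1 library and the r values are descriptions. *Fabp7* and *S100b* were each other's closest gene (0.99), and both had *Gpr37l1* and *Cntf* among their 5 closest. *Scrg1* and *Tgfb2* completed the list for *Fabp7*, and *Hspb2* and *Sox10* that for *S100b*. *Lgi4* was closest to *Cmtm5* (0.99), then *Plekhb1*, *Entpd2*, *Luzp2* and *Ttyh1*. *Erbb3* was closest to *Gfra3* (0.99), then *Cadm4*, *Lrrtm1*, *Nrn1* and *Col11a1*, and *Gfap* to *Gfra1* (0.99), then *Nkain4*, *Sfrp5*, *Fam107a* and *Paqr6*.

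The same 5 genes (*Lgi4*, *Fabp7*, *Erbb3*, *S100b* and *Gfap*) were also close to each other, with r from 0.94 to 0.99. *Ngfr* stood apart, with r of 0.84 to *Erbb3* and 0.70 to 0.73 to *Lgi4*, *Gfap*, *Fabp7* and *S100b*. Its closest genes were *Lrrc4c* (0.99), *Galnt16*, *1700019D03Rik*, *B3gnt4* and *Mamdc2*. *Pmp22* was farther off, with r of 0.24 to *Ngfr* and 0.55 to 0.62 to the other 5, and its closest genes were *Cd59a* (0.94), *Dag1*, *Bloc1s1*, *Zfp180* and *Arl5a*.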

How the data were processed

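The deposited matrix gives UMI counts for each barcode. The authors built it from a 10x 3′ library, with Cell Ranger 4.0.0 and mm10 per the submitters' processing notes. Cells with 500 to 5000 genes and at most 20% mitochondrial UMIs were kept. They were clustered with Seurat 5.3.0 (R 4.3.3; 2000 variable features without the 7 genes, 10 principal components, resolution 0.4). A cluster was named when 3 markers of a list were each in 50% of its cells, or 25% for sustentacular and cycling lists. Clustering ran in 3 passes, the first over all cells and the later ones over medullary clusters, until none held 3 markers of another type.

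The sustentacular-like cells were shallow (a median of 1146 UMIs against 3567 in the library), and 2 of their naming markers were among the 10 genes of largest fold over all other cells (1 over all other medullary cells). Levels are summed UMIs scaled to CPM (exact Poisson intervals), shares have Clopper-Pearson intervals and ratios exact conditional intervals. A zero allows up to 3 counts. Scrublet (scanpy 1.11.5, Python 3.11.15) called 669 cells (6.60%) as doublets. They stayed in, and their removal was an alternative. The scripts were tested on simulated data.

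The members and lists were chosen with earlier results of these data known. Named were all 7 genes, the 5 genes most alike to each, the 4 of highest sustentacular-like level per list, and every ligand or receptor partner with a UMI in medullary cells. Genes of other ranks given were chosen after their values were seen. Some genes of the lists are not reported here.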

Additional observations from a re-analysis of the deposited data

How the results depend on the processing

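With 1 library, no replicate could be left out, and no paired analysis was possible because there is only 1 sample. Resolutions of 0.2 and 0.8, 30 principal components, the 7 genes kept among the variable features, and removal of called doublets before clustering left the number of sustentacular-like cells between 176 and 179 and the 5 summary values inside their own intervals. With cells named singly, each by the marker UMIs it held, there were 138 sustentacular-like cells with a summed level 32.4 times that in chromaffin-like cells, against 178 and 46.7. The mean over cells of each cell's level gave a transitioning-like to sustentacular-like ratio of 0.238, against 0.1997. The share of sustentacular-like cells with at least 2 of the genes was 77.0% after thinning and 26.4% when 2 UMIs were needed for detection, against 86.5%. The causes were not tested, except that both settings for detection count fewer UMIs. Of 161 single-gene values under alternatives, 150 stayed inside their interval and 11 did not. No ratio changed direction, and the levels and shares among these values have no direction to change. The alternatives include leaving out the 2 called doublets among transitioning-like cells, a setting chosen after seeing the data. Requiring 1000 or more genes, with mitochondrial UMIs of 10% or less, left no cluster with the sustentacular name, so it gave no values. The median in these cells was 706.5 genes. Depth limits *Gfap*, *Ngfr* and *Erbb3* most, with 23 to 50 UMIs in sustentacular-like cells.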

Other observations

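The classes left out of the comparisons held some glial UMIs. The 193 medullary cells set aside for carrying markers of another cell type had *Fabp7* at 60.8 CPM (46.8 to 77.6), *S100b* at 46.5 (34.4 to 61.5) and *Lgi4* at 32.3 (22.4 to 45.1), and 17 of them had at least 3 of the 6 genes other than *Pmp22*. Scrublet called 127 of these 193 cells as doublets. The 538 cells of mixed clusters had the same genes at 10.3, 7.58 and 6.67 CPM, and 375 were called as doublets. The unnamed cluster of 43 cells had no UMI of any of the 7 genes, which allows up to 50.4 CPM for each.

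Cycling chromaffin-like cells had more glial RNA than the other chromaffin-like cells. Their 7 genes together were at 238 CPM (207 to 271), 3.04 times the level in chromaffin-like cells (2.60 to 3.54), with *Fabp7* 16.4 times higher (9.33 to 29.4, 37 and 21 UMIs) and *Ngfr* at 0.956 of that level (0.579 to 1.501). Of these 137 cells, 16 were called as doublets, and their part in these values was not tested.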
